A study of Mus musculus with 6 samples.

Results

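The platelet-derived growth factor (PDGF) system was described here through 6 genes, the receptors *Pdgfrb* and *Pdgfra* and the ligands *Pdgfa*, *Pdgfb*, *Pdgfc* and *Pdgfd*, out of 32285 genes in single-cell RNA sequencing (scRNA-seq) counts of sorted amygdala cells. The genes were listed by name, and their levels were read in cells chosen by a few other transcripts counted as unique molecular identifiers (UMIs, one per captured RNA molecule). Astrocytes had at least 20 UMIs of the glutamate transporters *Slc1a2* and *Slc1a3* together and at most 3 of *Vtn* and *Rgs5*. Pericytes, the contractile cells that wrap capillaries, had at least 10 UMIs of *Vtn* and *Rgs5*, at most 5 of the transporters, fewer than 5 of *Acta2* and fewer than 3 of *Dcn*. Acta2 cells had at least 5 UMIs of *Acta2*, the smooth-muscle actin, and Dcn cells had at least 3 UMIs of *Dcn*, a matrix proteoglycan of fibroblasts. Of 13546 cell barcodes, 8757 met the astrocyte rule, 2211 the pericyte rule, 22 the *Acta2* rule and 41 the *Dcn* rule, and 2517 met none. Because the genes were chosen with their pattern over these classes in view, class levels are given as a description with no test.

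The mice were wild-type C57BL/6N, given as young adult C57BL/6NCrSlc in the study's methods, and their amygdala was collected 90 min after behaviour. The labels give them as male, whereas the methods name both sexes for the study as a whole. Mice of the NoFC group received no foot shock and FC mice received contextual fear conditioning. NoFR mice were conditioned and had no recall, and FR mice were conditioned and recalled the fear on the next day. The study's text places the NoFR collection a day after conditioning, with those mice left in the home cage. NoFR and FC mice thus differ in the time since conditioning. There were 4 mice in each group, 16 in all. The dissociation buffers held inhibitors of transcription and translation, and cells were stained for ACSA-2, an astrocyte surface antigen, and for CD11b, CD45 and O1 before sorting. Cells of each mouse carried a hashtag antibody and were pooled into 3 libraries. Every group gave 2 mice to library 1. Library 2 lacked NoFR mice and library 3 lacked FC mice, so FC and NoFR mice met only in library 1.

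PDGFs are dimeric growth factors that act on receptor tyrosine kinases. PDGF-A and PDGF-C bind PDGF receptor α, PDGF-B binds both receptors and PDGF-D binds mainly receptor β. PDGF-C and PDGF-D are secreted as latent proteins that proteases must cleave before they act. In the brain, endothelial PDGF-B recruits and maintains pericytes through receptor β, whereas receptor α is known for oligodendrocyte precursors and for fibroblasts. *Pdgfrb* is widely used as a pericyte marker.

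The libraries held 42350059, 31700569 and 33368825 gene UMIs in 5287, 3631 and 4628 barcodes. Astrocytes had a median of 9667, 10281 and 9832 UMIs in libraries 1, 2 and 3, and pericytes had 4820, 5192 and 5017. Levels are in CPM, the UMIs of a gene summed over the cells of a class in a library and scaled to a fixed total of all UMIs there, and errors are the SD over the 3 libraries. The classes were checked against marker lists. All 15 astrocyte markers were found in astrocytes, at 24972 to 25651 CPM in sum, and all 20 pericyte markers in pericytes, at 39392 to 39537 CPM, against 161 to 190 CPM in astrocytes. In pericytes the astrocyte list summed to 9618 to 10187 CPM, with 1 of 15 at 0. Acta2 cells carried the smooth-muscle list at 9784 to 14643 CPM with 1 of 10 markers at 0, but also the pericyte list at 10529 to 24874 CPM. Their astrocyte list summed to 2351 to 9476 CPM. Dcn cells carried the fibroblast list at 17310 to 20800 CPM and the pericyte list at 18982 to 41258 CPM, so the fibroblast name did not hold for all of them, and pericytes had 15264 to 15744 CPM of the fibroblast list, which includes *Vtn*. Cells that the hashtags marked as doublets stayed in the classes, no doublet caller was run on the transcripts, 101 barcodes with both astrocyte and pericyte counts stayed outside the classes, 2 barcodes met 2 rules, and pairs of libraries shared 3 to 8 barcode sequences.

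*Pdgfrb* (ENSMUSG00000024620) encodes receptor β and lies on the forward strand of chromosome 18 from 61045150 to 61085061 in the GRCm38 build with the GENCODE vM21 annotation. In pericytes it stood at 1728, 1702 and 1818 CPM in libraries 1, 2 and 3 (1749 ± 61.0, SD, n = 3 libraries). In astrocytes it stood at 71.1, 70.1 and 74.5 CPM (71.9 ± 2.32, n = 3). The 2 classes did not overlap, and each varied little between libraries. In Acta2 cells it was 775, 1302 and 545 CPM (874 ± 388, n = 3), and in Dcn cells it was 1962, 958 and 776 CPM (1232 ± 639, n = 3). In the order of mean levels, pericytes came before Dcn cells, Acta2 cells and astrocytes, and the Dcn range overlapped both that of pericytes and that of Acta2 cells, while astrocytes lay below every library of the other classes.

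The share of cells with a *Pdgfrb* UMI depends on depth, so each cell was thinned at random to 2000 UMIs for a comparison between classes. A UMI was then found in 94.2%, 94.7% and 95.3% of pericytes and in 12.9%, 13.7% and 14.6% of astrocytes. It was found in 17 of 22 Acta2 cells and in 34 of 41 Dcn cells. Without thinning, the shares were 99.0% of pericytes and 47.4 ± 1.23% of astrocytes (n = 3 libraries). None of the 4 classes could serve as cells that lack the gene.

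**Figure D1:**
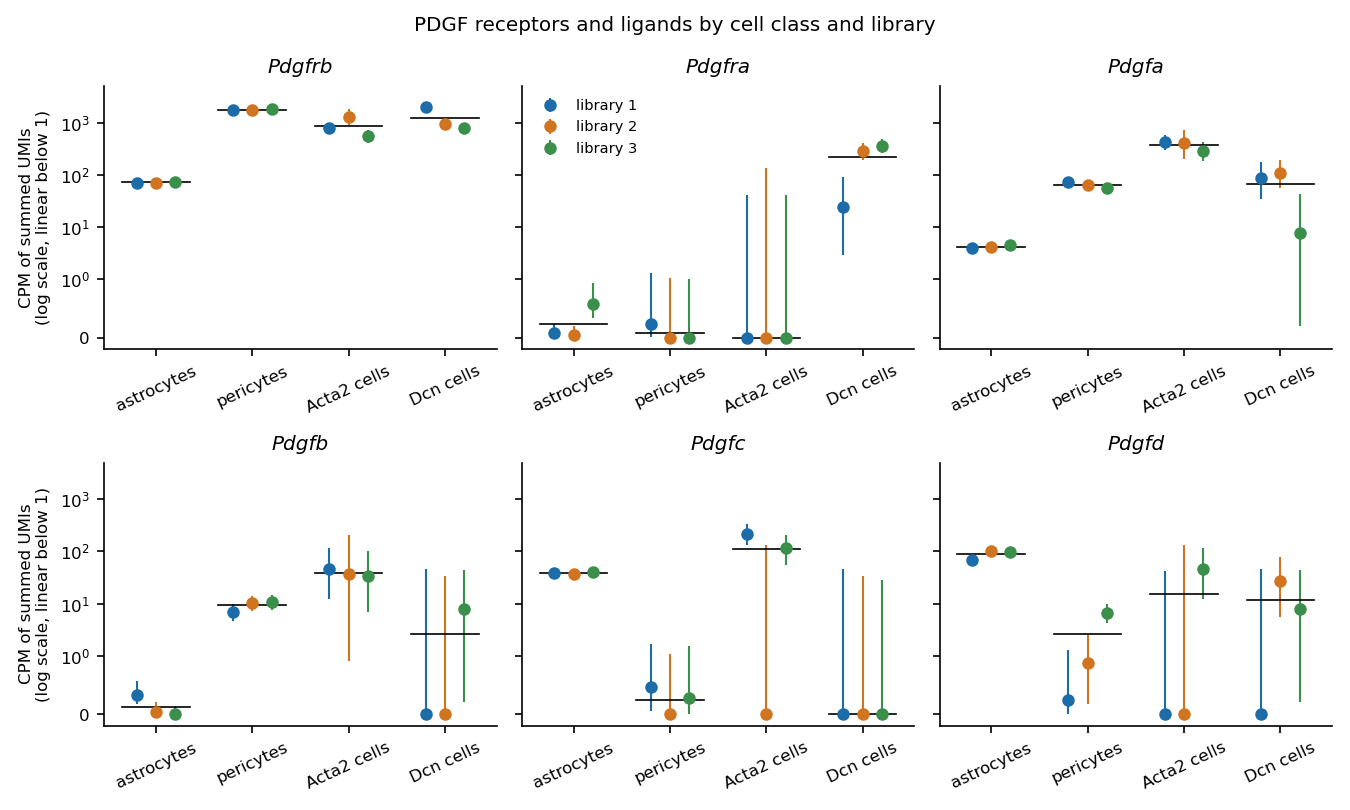
CPM of each gene (vertical axis, logarithmic above 1 and linear below) in astrocytes, pericytes, Acta2 cells and Dcn cells. Points are the 3 libraries with 95% exact Poisson intervals, which cover counting error only, and the short lines are their means. *Pdgfrb* stood between 1702 and 1818 CPM in pericytes and between 70.1 and 74.5 CPM in astrocytes, whereas *Pdgfc* and *Pdgfd* were higher in astrocytes than in pericytes in each library.

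The low *Pdgfrb* level of astrocytes was set beside that of other pericyte genes. The astrocyte level of *Pdgfrb* was 4.12%, 4.12% and 4.10% of the pericyte level in libraries 1, 2 and 3. For *Abcc9* and *Kcnj8*, which encode the subunits of the pericyte potassium channel, the mean percentages were 0.0404% and 0.0461%, and for *Higd1b* and *Anpep* they were 0.0490% and 0.0505%. These transcripts were near absence in astrocytes. *Cspg4*, the NG2 proteoglycan, stood at 0.375%, *Art3* at 0.979%, the transporter *Atp13a5* at 1.46% and the receptor *P2ry14* at 2.93%. Of the 18 markers that did not define the classes, *Notch3*, a receptor of vascular mural cells, came closest to *Pdgfrb*, at 3.87% on average and 4.18% in library 3. The astrocyte rule itself caps *Vtn* and *Rgs5* and so removes barcodes that hold much pericyte RNA, and the part of free pericyte RNA in the astrocyte level was not tested.

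The share with a *Pdgfrb* UMI was also counted by the *Vtn* and *Rgs5* UMIs left in astrocytes, which the rule limits to 3. *Pdgfrb* was read after thinning to 5000 UMIs, but *Vtn* and *Rgs5* in whole counts, so that grouping was not at matched depth. With neither a *Vtn* nor an *Rgs5* UMI, 2103 of 7107 astrocytes held *Pdgfrb* (29.6%). The counts were 179 of 608 with 1 such UMI (29.4%), 14 of 44 with 2 (31.8%) and 1 of 8 with 3 (12.5%). Barcodes that carried both astrocyte and pericyte counts stood at 666 CPM of *Pdgfrb*, above every astrocyte library.

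**Figure D2:**
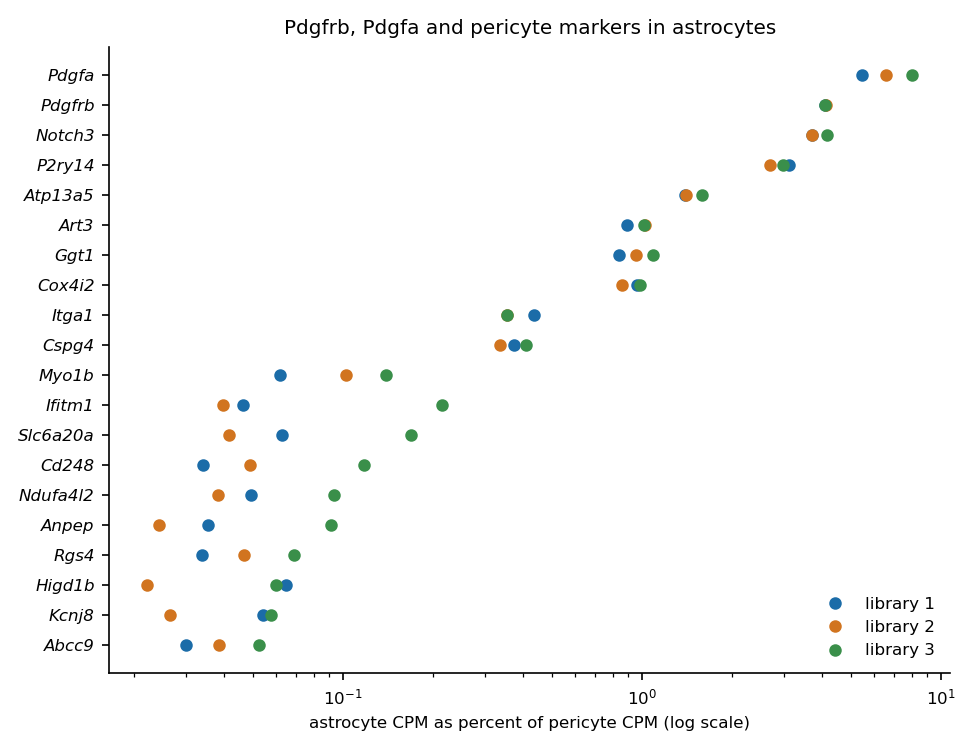
Level in astrocytes as a percent of the level in pericytes (horizontal axis, logarithmic) for *Pdgfrb*, *Pdgfa* and the pericyte markers that did not define the classes. Points are the 3 libraries. *Pdgfrb* stood at 4.10% to 4.12%, *Notch3* at 3.70% to 4.18%, and *Abcc9*, *Kcnj8*, *Higd1b* and *Rgs4* under 0.1%.

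*Pdgfra* (ENSMUSG00000029231), which encodes receptor α, lies on the forward strand of chromosome 5 from 75152292 to 75198215. It was close to absent outside Dcn cells. The 8757 astrocytes held 20 UMIs in 7 cells, with 3, 1 and 16 UMIs in libraries 1, 2 and 3, and the 2211 pericytes held 1 UMI. Of the 16 UMIs in library 3, 15 lay in 2 barcodes that met the *Dcn* rule as well and are counted in both classes, and without them the astrocytes held 5 UMIs in 5 cells. In the 22 Acta2 cells there were 0 UMIs, which allows up to 14.7 CPM. Dcn cells reached 24.7, 280 and 361 CPM, with 79 UMIs in 14 of 41 cells, and library 1 stood far below the others. Dcn cells thus divided by receptor. Both receptors were found in 11 of them, *Pdgfrb* alone in 27 and *Pdgfra* alone in 3. The 14 cells with *Pdgfra* had a *Pdgfrb* level of 295 CPM and a median of 16 *Vtn* and *Rgs5* UMIs, whereas the 27 cells without it had 1737 CPM and a median of 120. These medians differ in the markers of pericytes, and in library 1 only 1 of the 12 Dcn cells held *Pdgfra*. Barcodes with at least 3 *Pdgfra* UMIs numbered 14, and each had 4 to 9 of 10 fibroblast markers and 0 or 1 of 10 markers of oligodendrocyte precursors. Those precursors were also sought as barcodes with at least 20 UMIs over at least 4 of their markers. The search was limited to barcodes with at most 5 *Slc1a2* and *Slc1a3* UMIs and at most 3 *Vtn* and *Rgs5* UMIs, and found 0.

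*Pdgfa* (ENSMUSG00000025856), a ligand of receptor α, lies on the reverse strand of chromosome 5 from 138976014 to 138997370. It was highest in Acta2 cells, at 421, 398 and 284 CPM (368 ± 73.5, n = 3 libraries) and in 20 of 22 cells. Pericytes stood at 71.9, 63.8 and 57.0 CPM (64.2 ± 7.44, n = 3). Smooth-muscle actin cells and pericytes did not overlap. Astrocytes stood at 3.92, 4.20 and 4.57 CPM (4.23 ± 0.324, n = 3), and Dcn cells ranged from 7.84 to 108 CPM. At 2000 UMIs per cell, 10.2% of pericytes and 0.956% of astrocytes held a *Pdgfa* UMI.

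*Pdgfb* (ENSMUSG00000000489), the ligand that endothelium presents to pericytes, lies on the reverse strand of chromosome 15 from 79995874 to 80014977. Endothelial cells were few among these sorted cells. By a rule chosen after seeing the data, 7 barcodes held at least 3 of the 5 endothelial genes *Cldn5*, *Ly6c1*, *Cdh5*, *Ptprb* and *Abcb1a*, with 5 in no class, 1 among astrocytes and 1 among pericytes. Each of the 7 held *Pdgfb*, 39 UMIs in all, and 0 *Pdgfrb* UMIs. Pericytes stood at 7.02, 10.2 and 10.7 CPM (9.31 ± 2.00, n = 3 libraries), with 104 UMIs in 81 of 2211 cells. Acta2 cells stood at 45.6, 36.2 and 34.1 CPM on 8 UMIs in all. In astrocytes there were 12, 1 and 0 UMIs, of which 11 lay in the single barcode with endothelial genes, beside 41 UMIs of *Cldn5*, 65 of *Flt1* and 25 of *Ly6c1*. Without that barcode the astrocytes held 2 *Pdgfb* UMIs.

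Between astrocytes and pericytes, the ligands *Pdgfc* and *Pdgfd* showed the opposite order to *Pdgfrb* and *Pdgfa*. *Pdgfc* (ENSMUSG00000028019), a ligand of receptor α, lies on the forward strand of chromosome 3 from 81036416 to 81214040. It stood at 38.8, 36.4 and 40.8 CPM in astrocytes (38.7 ± 2.21, n = 3 libraries), where 23.6 ± 0.553% of cells held a UMI. Pericytes held 2, 0 and 1 UMIs, a pooled level of 0.264 CPM. At 2000 UMIs per cell the share was 6.70% in astrocytes and 0.0462% in pericytes, and the pericyte share serves here as the background of a class with next to no *Pdgfc*. Acta2 cells held 19, 0 and 10 UMIs, or 216, 0 and 114 CPM, in 8 of 22 cells. The *Acta2* rule sets no limit on astrocyte transcripts, and in library 1 these cells held 204 *Slc1a2* UMIs, in 30% of them. The part of astrocyte RNA in their *Pdgfc* level was not tested. The 41 Dcn cells held 0, which allows up to 9.39 CPM.

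*Pdgfd* (ENSMUSG00000032006), a ligand of receptor β, lies on the forward strand of chromosome 9 from 6168584 to 6378850. *Pdgfc* and *Pdgfd* span 177.6 and 210.3 kb, against 39.9 kb of *Pdgfrb*, and their levels would include intronic reads if these were counted, which is not known here. In astrocytes *Pdgfd* stood at 68.3, 103.7 and 95.9 CPM (89.3 ± 18.6, n = 3 libraries), with library 1 below the others. A UMI was found in 24.1%, 30.2% and 29.5% of astrocytes, and 1 astrocyte held 54. Pericytes held 1, 3 and 24 UMIs, or 0.234, 0.870 and 6.61 CPM, with most in library 3. At 2000 UMIs per cell, 11.8% of astrocytes and 0.323% of pericytes held one. Acta2 cells held 4 UMIs in 1 cell and Dcn cells held 4 in 3 cells. Between astrocytes and pericytes, receptor β was thus higher in pericytes and its ligand *Pdgfd* higher in astrocytes in each library. Over the 4 classes, the counted level of *Pdgfd* was highest in astrocytes in each library, whereas *Pdgfrb* was highest in Dcn cells in library 1. In library 2 the 5 Acta2 cells held 0 *Pdgfd* UMIs, which allows up to 108 CPM, so their rank against astrocytes is open there.

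The remainder of the pathway was read in a fixed list of 41 genes, described with no test. In 27 of them (65.9%) the 3 pericyte libraries lay above the 3 astrocyte libraries, in 5 (12.2%) they lay below and in 9 the classes overlapped. Over all 23534 genes with a UMI, pericytes lay above in 30.6% and astrocytes in 34.8%. *Gab1*, a docking protein below the receptors, stood at 384 ± 11.2 CPM in pericytes and 83.8 ± 4.14 CPM in astrocytes (n = 3 libraries each). The adaptor *Shc1* stood at 70.6 ± 1.92 and 12.8 ± 0.390 CPM, and the adaptor *Nck2* at 108 ± 7.46 and 10.5 ± 0.427 CPM. *Plat*, which encodes the protease that activates PDGF-C, stood at 418 ± 8.77 CPM in pericytes and 10.2 ± 1.38 CPM in astrocytes, and *Plau*, whose product can activate PDGF-D, at 15.1 ± 1.97 and 0.230 ± 0.125 CPM. The proteases were therefore higher in the class that held little *Pdgfc* and *Pdgfd*. *Ptprj*, a phosphatase that acts on receptor β, was among those higher in astrocytes, at 129 ± 9.74 CPM against 17.5 ± 1.39 CPM in pericytes. So were *Src*, *Plcg1* and *Slc9a3r1*, by less, at 65.7, 42.9 and 175 CPM in astrocytes against 31.7, 24.0 and 117 CPM in pericytes. The kinase subunit *Pik3r1* differed little, at 319 ± 4.01 and 332 ± 10.7 CPM. Among relatives of the PDGF receptors and their ligands, *Il34*, a ligand of the receptor CSF1R, stood at 635 ± 5.68 CPM in pericytes and 0.617 ± 0.306 CPM in astrocytes.

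Genes whose pattern was most like each member were named by Pearson's r of log2(CPM + 1) over 12 sums, 4 classes by 3 libraries, among 9973 genes. The points share libraries and depth, and r is a description. For *Pdgfrb* they included *Trpc4* (r = 0.996), *Airn*, *Atp2a3* and *Grm7*. For *Pdgfra* they were *Serpinf1* (r = 0.998), *Col15a1*, *Medag*, *Fam180a* and *Zfp536*. For *Pdgfa* they were *Syne2* (r = 0.983), *Wtip*, *Dhx58os*, *Esyt2* and *Actn1*, and for *Pdgfb* *Phactr2* (r = 0.980), *Tuba1a* and the ribosomal genes *Rpl41*, *Rpl29* and *Rpl7a*. *Pdgfc* was nearest to *Slc35f1* (r = 0.972), *Synpo2*, *Entpd1*, *Khdrbs3* and *1500009C09Rik*. *Pdgfd* was nearest to *Shroom3* (r = 0.983), *Pdlim4*, *Scn8a*, *Slc38a3* and *Kcna2*.

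Among astrocytes at matched depth the receptor and the ligands differed in how their UMIs were spread. All values in this paragraph are from 7767 astrocytes thinned to 5000 UMIs, with 990 shallower cells left out. *Pdgfrb* was found in 29.6%, 28.5% and 30.6% of them in libraries 1, 2 and 3 (95% exact binomial intervals 28.0 to 31.2, 26.6 to 30.4 and 28.8 to 32.5%). Of the positive cells 1829 held 1 UMI, 391 held 2 and 77 held 3 or more, up to 5, and the variance of the UMIs was 1.09, 1.11 and 1.10 times the mean. A variance equal to the mean is what random sampling from one common level gives, and the *Pdgfrb* variance lay slightly above that. Its mean was 0.364, 0.355 and 0.385 UMIs per cell. At so low a mean the ratio does not give the size of the spread between cells. *Pdgfc* was found in 14.9 ± 0.897% of cells (n = 3 libraries), up to 6 UMIs, and its variance was 1.37, 1.41 and 1.38 times a lower mean. *Pdgfd* was found in 21.7 ± 2.89%, but 397 of its 1659 positive cells held 3 or more UMIs, up to 15, and its variance was 2.41, 2.97 and 2.67 times the mean. *Pdgfd* was thus concentrated in a part of the astrocytes, more than *Pdgfrb* was.

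**Figure D3:**
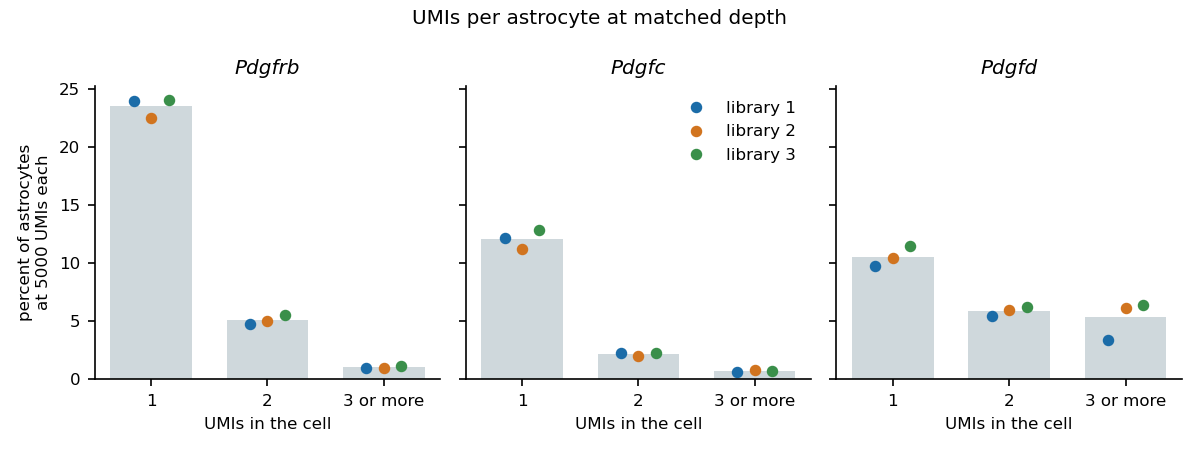
Percent of astrocytes (vertical axis) with 1, 2 and 3 or more UMIs (horizontal axis) of *Pdgfrb*, *Pdgfc* and *Pdgfd* at 5000 UMIs per cell. Bars are means and points are the 3 libraries. Of *Pdgfrb*-positive astrocytes 1829 held 1 UMI and 77 held 3 or more, whereas 812 *Pdgfd*-positive astrocytes held 1 and 397 held 3 or more.

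The ligands were counted in astrocytes with and without the receptor. *Pdgfd* was detected in 19.6%, 16.8% and 23.3% of *Pdgfrb*-positive astrocytes and in 18.0%, 24.8% and 24.4% of *Pdgfrb*-negative ones in libraries 1, 2 and 3. The direction differed between libraries, and the gap was widest in library 2. *Pdgfc* was detected in 14.3%, 13.9% and 15.9% of *Pdgfrb*-positive and in 15.2%, 14.1% and 15.8% of *Pdgfrb*-negative astrocytes.

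The next comparison asked what else differed between *Pdgfrb*-positive and *Pdgfrb*-negative astrocytes. It rested on 930, 642 and 725 positive and 2214, 1614 and 1642 negative cells, whose UMIs were summed per library. The sums were compared with edgeR's quasi-likelihood test with the library as a block and Benjamini-Hochberg adjustment. Cells are not replicates, and the 3 libraries pool mice. With the block, the adjusted p-values rest on how differences between positive and negative sums varied over the 3 libraries. edgeR moderates that variation over all genes tested, so a gene whose own difference varied between libraries can still be called. The adjusted p-values do not measure the spread between mice. Of 12959 genes, 19 (0.147%) were higher and 67 (0.517%) lower in *Pdgfrb*-positive astrocytes at an adjusted p under 0.05. DESeq2 called 0 higher and 9 lower, edgeR without the library as a block 2 higher and 29 lower, and sums per mouse gave 1 call, which was not among the 86. Most of the strongest differences were genes of dividing cells. *Top2a*, a topoisomerase of the cell cycle, stood at 0.217, 0 and 0 CPM in libraries 1, 2 and 3 among positive cells, against 15.2, 9.52 and 5.65 CPM among negative ones. Its log2 fold change of −6.63 had an SE of 0.492 (edgeR, adjusted p = 1.8e-22). The proliferation marker *Mki67* had a log2 fold change of −5.74, the kinetochore gene *Cenpf* −3.98 and the histone gene *Hist1h1b* −3.22. *Fxyd6*, *Lockd*, *Miat*, *Hist1h2ab* and *Cdca8* completed the 9 lowest, at −4.19 to −2.66, and each was lower in 3 of 3 libraries.

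The cell-cycle genes came from few barcodes, with *Top2a* in 34 cells and *Mki67* in 32. Of the 7767 astrocytes, 39 held at least 2 UMIs of *Top2a* and *Mki67*, a limit chosen after seeing the data, with 23, 8 and 8 in libraries 1, 2 and 3. At 5000 UMIs 1 of the 39 held *Pdgfrb* (2.56%), against 2296 of the 7728 others (29.7%). Since *Top2a* and *Mki67* were called in the split itself, this share restates those calls for the barcodes behind them. *Pdgfc* and *Pdgfd* were found in 0 of the 39, which allows a share of up to 7.69%. The barcodes met the astrocyte rule but went against its name. Their whole counts had a median of 30124 UMIs against 10476.5 in the others, and their astrocyte markers summed to 3332 CPM against 25502 CPM. The water channel *Aqp4* stood at 5.88 CPM against 580 CPM and *Sox11*, a transcription factor of immature neurons, at 1120 against 23.9 CPM. All 39 held *Sox11*. In whole counts *Pdgfrb* stood at 3.36 CPM in them, on 4 UMIs, and *Pdgfa* at 4.20 CPM, the same as in the others. *Pdgfc* stood there at 5.88 CPM, on 7 UMIs in 10.3% of the 39, against 39.3 CPM in the others. *Pdgfd* stood at 2.52 CPM, on 3 UMIs in 5.13% of the 39, against 88.2 CPM.

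With these 39 barcodes left out, 19 genes were called, 5 higher and 14 lower, of which 17 were among the 86. *Kcnd2*, a potassium channel subunit, stood at 1157, 1129 and 1269 CPM among positive cells, against 1238, 1298 and 1469 CPM among negative ones (log2 fold change −0.17, SE 0.0282, edgeR adjusted p = 5.1e-05). *Atp1b1*, a sodium pump subunit, stood at 74.7, 72.9 and 70.1 CPM among positive cells, against 63.6, 54.3 and 51.6 CPM among negative ones, without overlap (log2 fold change 0.35, SE 0.0699, adjusted p = 0.0031). *Kcnd2* was chosen after its values were seen. In the fit on all astrocytes, the 10 highest called genes were *Myo3b* (log2 fold change 1.68) and *AC150683.1* (1.43), both with means under 4 CPM, then *Fzd4* (0.41), a Wnt receptor, *Atp1b1* (0.36), *Dtx3* (0.28), *Selenos* (0.20), *Ctsl* (0.20), *Gm35188* (0.19), *Kcnk1* (0.18) and *Fjx1* (0.14). Apart from the first pair, these differences were small.

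Of the other members, 3 had enough counts for this fit and 1 was called. *Pdgfd* stood at 68.6, 65.7 and 93.3 CPM in *Pdgfrb*-positive and at 68.9, 111 and 101 CPM in *Pdgfrb*-negative astrocytes. It was lower in 3 of 3 libraries, by far most in library 2 (log2 fold change −0.27, SE 0.0688, edgeR adjusted p = 0.028). Without library 2 the log2 fold change was −0.07 (adjusted p = 0.91), so the call rested on that library, and it was also lost with DESeq2 (adjusted p = 1.00), without the library as a block (adjusted p = 0.87) and with sums per mouse (adjusted p = 0.67). *Pdgfc* stood at 37.3, 40.5 and 38.4 CPM among positive cells, against 37.6, 34.4 and 39.7 CPM among negative ones (log2 fold change 0.05, SE 0.0870, adjusted p = 0.95). *Pdgfa* had a log2 fold change of −0.22 (SE 0.261, adjusted p = 0.91). Of 38 pathway genes and 16 genes of astrocyte subtypes and states that could be tested, 0 were called by edgeR, with median log2 fold changes of −0.02 and −0.01 against 0.00 over all genes. Of 3 genes of the related receptors and their ligands, 0 were called in any of the 3 splits. Of 10 pericyte markers tested 0 were called, with a median of 0.01. Over all 12959 genes of this fit, 0.147% were called higher and 0.517% lower. At such shares, 0 calls in short lists do not set these lists apart from other genes.

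**Figure D4:**
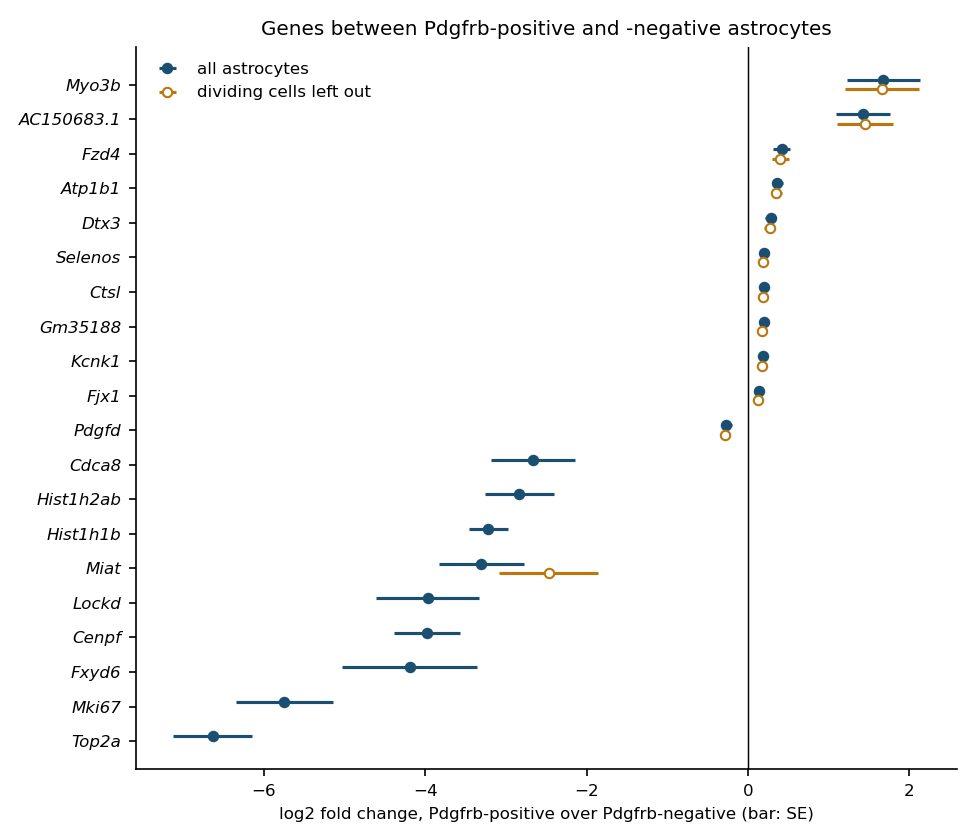
Log2 fold change of *Pdgfrb*-positive over *Pdgfrb*-negative astrocytes (horizontal axis, bars are SE) for the 10 highest and 9 lowest called genes and *Pdgfd*. Filled points are all astrocytes at 5000 UMIs and open points are the fit without the 39 dividing barcodes, where genes with too few counts have none. *Top2a* lay at −6.63, whereas *Atp1b1* lay at 0.36 and 0.35 and *Pdgfd* at −0.27 and −0.29.

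The same fit was run for the ligands *Pdgfc* and *Pdgfd*, a choice made after seeing the data. Between *Pdgfd*-positive and *Pdgfd*-negative astrocytes, 1147 of 12821 genes (8.95%) were higher and 1352 (10.5%) lower. *Gria1*, an AMPA glutamate receptor subunit, stood at 410 CPM on average among positive cells, against 122 CPM among negative ones (log2 fold change 1.75, SE 0.0482, edgeR adjusted p = 3.8e-39). Among subtype and state genes, 6 of 16 were higher and 4 lower. The homeobox gene *Nkx6-2* (1.41), the angiotensinogen gene *Agt* (0.92), the matrix gene *Sparc* (0.75), the potassium channel *Kcnma1* (0.44), *Gfap* (0.39) and the adrenergic receptor *Adra1a* (0.26) were higher. *Igfbp2* (−1.01), *Lmo1* (−0.89), *Vim* (−0.75) and *Id3* (−0.18) were lower. The list thus moved in both directions with *Pdgfd*. Within the pathway, 10 of 38 genes were higher and 2 lower. Among the higher ones were *Ptprj* (0.64), the receptor-like gene *Pdgfrl* (0.50), *Pik3r1* (0.31) and *Stat3* (0.30), and the lower ones were *Hras* (−0.56) and *Slc9a3r1* (−0.39), a scaffold protein. *Pdgfrb* had a log2 fold change of −0.16 (SE 0.0786, adjusted p = 0.17), and it was called only without library 1 (−0.31, adjusted p = 0.014). That library was the one with the opposite direction. Without the 39 dividing barcodes 2370 genes were called, 2337 of them among the 2499, and *Gria1* kept a log2 fold change of 1.74.

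Between *Pdgfc*-positive and *Pdgfc*-negative astrocytes, 490 of 12822 genes (3.82%) were higher and 529 (4.13%) lower, and 871 were called without the 39 barcodes. Of the subtype and state genes, *Kcnma1* (0.36), *Adra1a* (0.34) and the Hedgehog effector *Gli2* (0.22) were higher and *Aqp4* (−0.12) was lower. *Ptprj* (0.25) and the transcription factor *Stat5b* (0.29) were the pathway genes called, 2 of 38. *Pdgfd* stood at 82.8, 101 and 120 CPM in *Pdgfc*-positive and 66.3, 97.2 and 94.6 CPM in *Pdgfc*-negative astrocytes. It was higher in 3 of 3 libraries (log2 fold change 0.25, SE 0.0742, edgeR adjusted p = 0.022), and in the reverse split *Pdgfc* was higher in *Pdgfd*-positive cells (0.31, SE 0.0952, adjusted p = 0.014). These are 2 views of the same cells. Both calls were lost with DESeq2 (adjusted p = 0.13 and 0.21), without library 1 (0.21 and 0.20) and without library 3 (0.27 and 0.10), and the first was lost without the library as a block (0.33) and without a filter on low counts (0.061). *Pdgfrb* had a log2 fold change of 0.03 (SE 0.0812, adjusted p = 0.88).

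The called gene with the largest log2 fold change in each of the 2 ligand fits lay in the ligand's own locus. *Ddi1* spans 6262733 to 6269846 on the reverse strand of chromosome 9, within *Pdgfd*, and shares no exon with it. It was found in 12, 13 and 15 *Pdgfd*-positive astrocytes and in 2, 1 and 1 negative ones, or 2.41% of 1659 cells against 0.0655% of 6108 (log2 fold change 5.08, SE 0.544, edgeR adjusted p = 1.5e-11). *Gm16000*, annotated as antisense, spans 81037408 to 81040437 on the reverse strand of chromosome 3 and overlaps an exon of *Pdgfc*. It stood at 7.16 CPM in *Pdgfc*-positive and 2.17 CPM in negative astrocytes (log2 fold change 1.73, SE 0.337, adjusted p = 0.00015). Whether the counting used strand was not given in the sources used here, so it is not known whether reads of *Gm16000* and *Pdgfc* were kept apart. *Pdgfra*, *Pdgfa* and *Pdgfb* also have exons that overlap other annotated genes.

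The last comparison asked whether the members differed between the behaviour groups, with the mouse as the unit. Of 11360 barcodes under 6% mitochondrial UMIs, hashtag calls gave 4449 single, 2462 doublet and 4449 negative. Of the single ones, 2993 carried a hashtag that the key lists for a mouse of their library, and the others were left out. This gave 45 to 228 astrocytes and 38 to 104 pericytes per mouse. The class levels per library above also hold barcodes without a listed mouse. Sums per mouse were compared over the 4 groups with edgeR's quasi-likelihood test and the library as a covariate. In astrocytes, 0 of 10140 genes (0%) were called, with 350 at an unadjusted p under 0.05. DESeq2 also called 0, with 176 at an unadjusted p under 0.05. *Pdgfrb* stood at 72.4 ± 9.80 CPM in NoFC mice, at 67.9 ± 11.2 CPM in FC mice, at 72.1 ± 10.2 CPM in NoFR mice and at 71.9 ± 5.26 CPM in FR mice (SD, n = 4 each), and the groups overlapped (edgeR adjusted p = 1.00). *Pdgfc* overlapped between groups as well, with means of 37.6 to 44.9 CPM. *Pdgfd* stood at 92.9, 61.6, 117 and 95.9 CPM in NoFC mice, 69.0, 70.5, 58.2 and 84.9 CPM in FC mice, 62.8, 66.5, 94.6 and 67.5 CPM in NoFR mice and 65.5, 131, 138 and 103 CPM in FR mice. Of the FR mice 3 lay above every FC and NoFR mouse and 1 lay among them. Within library 1, where all groups met, the FR mice were at 65.5 and 131 CPM and the other 6 mice at 61.6 to 92.9 CPM. *Pdgfd* was the member among the 350 genes, with an adjusted p of 1.00 (edgeR), and FR over FC mice had a log2 fold change of 0.56 (SE 0.163). Over the settings tried the edgeR or DESeq2 adjusted p ranged from 0.015, without a filter on low counts, to 1.00.

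In pericytes, 39 of 5692 genes (0.685%) were called and none was a member. *Pdgfrb* stood at 1559, 1701, 1671 and 1681 CPM in NoFC mice, 1625, 1636, 1700 and 1788 CPM in FC mice, 2022, 1731, 2003 and 2046 CPM in NoFR mice and 1715, 1602, 1598 and 1723 CPM in FR mice. Of the NoFR mice 3 lay above every mouse of the other groups. The group means were 1653 ± 63.9, 1687 ± 75.1, 1951 ± 147 and 1659 ± 68.5 CPM in that order (n = 4 each), with an adjusted p of 0.61 (edgeR) and 0.36 to 0.97 over the settings. Within library 1 the NoFR mice stood at 2022 and 1731 CPM and the others at 1559 to 1715 CPM. *Pdgfa* stood at 110, 89.1, 87.0 and 50.2 CPM in NoFC mice, 82.9, 86.6, 61.1 and 55.3 CPM in FC mice, 56.6, 54.8, 36.7 and 41.5 CPM in NoFR mice and 50.4, 45.8, 47.2 and 63.1 CPM in FR mice. NoFC mice other than 1 in library 3 lay above the NoFR and FR mice, with a log2 fold change of −0.83 (SE 0.281) in NoFR over NoFC mice and an edgeR adjusted p of 0.41, or 0.22 to 0.91 over the settings. Within library 1 the NoFC and FC mice stood at 82.9 to 110 CPM and the NoFR and FR mice at 45.8 to 56.6 CPM, without overlap, whereas the mice of library 3 did not follow that order. Neither gene passed the adjustment. *Pdgfb* was too low for the test, at group means of 7.97 CPM in NoFC to 17.5 CPM in NoFR mice. Of the 41 pathway genes, 37 could be tested in astrocytes and 32 in pericytes, and 0 were called in either class, with 3 and 1 at an unadjusted p under 0.05.

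**Figure D5:**
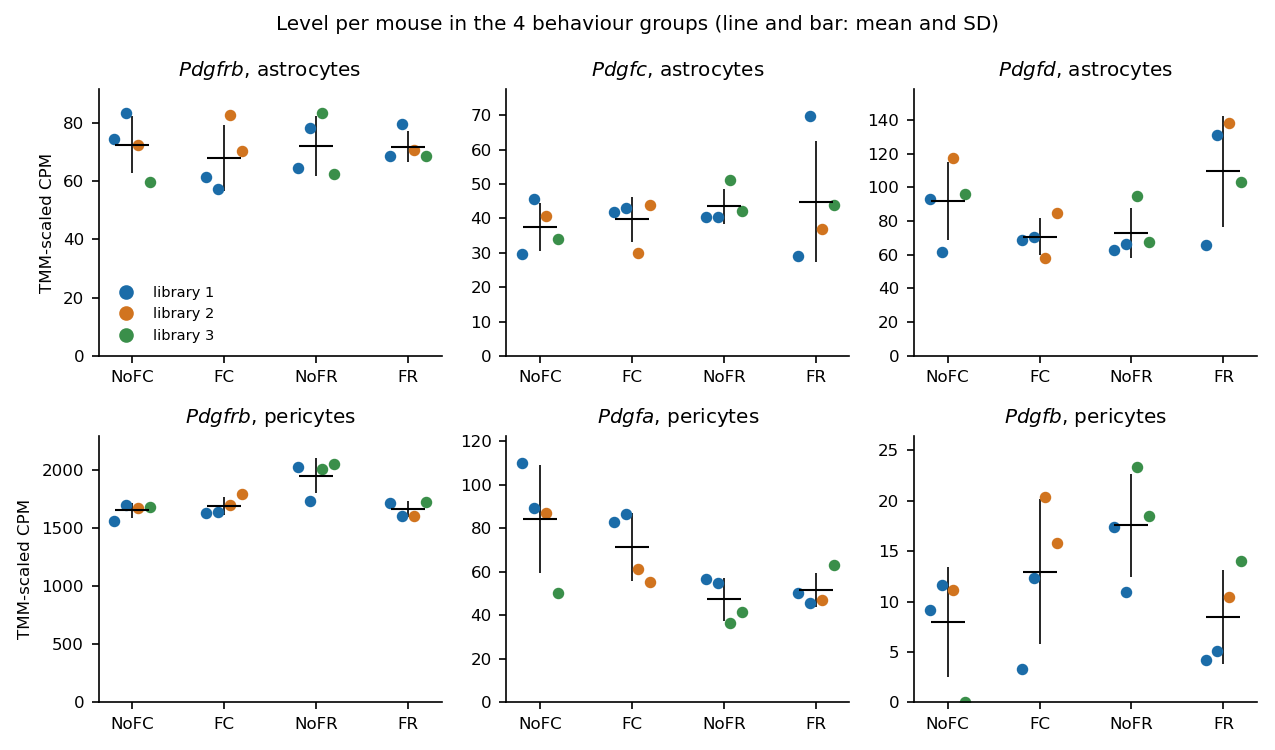
Level per mouse in CPM after TMM scaling (vertical axes, from 0) of *Pdgfrb*, *Pdgfc* and *Pdgfd* in astrocytes and of *Pdgfrb*, *Pdgfa* and *Pdgfb* in pericytes, in the 4 behaviour groups. Points are mice coloured by library, and lines with bars are the mean and SD of 4 mice. *Pdgfrb* in pericytes reached 2003 to 2046 CPM in 3 NoFR mice and 1559 to 1788 CPM in the mice of the other groups.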

How the data were processed

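For each of 3 libraries the authors deposited raw UMI counts of genes and hashtags in every barcode. Per the labels, reads were processed with Cell Ranger 3.0 on mm10, whereas the matrix headers name Cell Ranger 7.0.0, and neither the counting of intronic reads nor its strand setting was stated in the sources read. The study's methods removed pericytes by *Pdgfrb*, and here cells were classed by other transcripts, as stated in the results. The members, gene lists and classes were chosen with earlier results of these data known.

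Counts were summed per class and library or per mouse in Python 3.11.15, and thinned without replacement to 2000 or 5000 UMIs. Mice were assigned from the hashtag counts and the deposited key of hashtags with HTODemux (Seurat 5.3.0, quantile 0.99) in barcodes under 6% mitochondrial UMIs. HTODemux called 2462 doublets, left out of the comparisons by mouse only. Tests used edgeR 4.0.16 (TMM, filterByExpr, quasi-likelihood) in R 4.3.3, with DESeq2 1.42.0 as an alternative. The edgeR tests were also run on simulated counts, which held no library effect, no rare genes and a fixed size of change. Those runs do not show how the tests behave with rare genes or at other sizes of change. The split of positive and negative cells was paired by library, since both sums come from one library, and deviations from the group means correlated at 0.111, 0.103 and 0.0633. Intervals and floors of 3 counts cover counting error only.

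Named genes were the members, the pathway, receptor-family and subtype lists, the 10 highest and 10 lowest called genes with one direction in all 3 libraries, and the 5 most alike by r, of which some are not reported here. Other genes named were chosen after their values were seen.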

Additional observations from a re-analysis of the deposited data

Results flagged for a closer look

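In groups of 4 mice, the gap between the highest or lowest mouse and its nearest neighbour was divided by the range of the group. In all, 28 such groups were checked, and those flagged had ratios of 0.852 to 0.867. Chance alone flags about 1 in 20 groups. In astrocytes, *Pdgfc* stood at 30.1 CPM in FC mouse 3, against 41.9 to 43.8 CPM in the other FC mice. *Pdgfc* stood at 51.2 CPM in NoFR mouse 3, against 40.5 to 42.0 CPM in the other NoFR mice. The same NoFR mouse stood apart in *Pdgfd*, at 94.6 CPM against 62.8 to 67.5 CPM. In pericytes, *Pdgfrb* stood at 1731 CPM in NoFR mouse 2, against 2003 to 2046 CPM in the other NoFR mice, so that 1 mouse of the group with the highest mean lay among the mice of the other groups.

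Outside the classes, 3 barcodes with at most 3 *Vtn* and *Rgs5* UMIs carried endothelial markers, 1 in library 2 and 2 in library 3. They held 14 *Pdgfb* UMIs and 0 *Pdgfrb* UMIs in 15753 UMIs, which is a signal of the endothelial ligand in data that the comparisons did not use.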

How the results depend on the processing

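Among *Pdgfrb*-positive and negative astrocytes, 86 genes were called, 9 with DESeq2, 57 with *Vtn* and *Rgs5* at 0, 8 with at least 2 against 0 *Pdgfrb* UMIs and 19 without dividing barcodes. Depth moved the count most, to 13 at 3000 UMIs, 201 at 8000 and 1657 without thinning. Without the replicate block, which pairs the sums of a library, 31 genes were called. Sums per mouse gave 1 call of 3637 genes tested. Leaving out 1 library in turn gave 33 to 67 calls, with 33 without library 1 and 56 without library 2. The share of astrocytes with a *Pdgfrb* UMI, 29.6% at 5000 UMIs, was 19.0% at 3000, 41.2% at 8000 and 47.4% without thinning. For *Pdgfc*, 1019 calls became 429 with DESeq2, 471 without the replicate block and 528 to 888 without 1 library, with 535 without library 1 and 528 without library 3. For *Pdgfd*, 2499 calls became 949 with DESeq2, 2067 without the replicate block and 1639 to 2256 without 1 library, with 1639 without library 1. Between behaviour groups, astrocytes gave 0 calls, 71 without a filter on low counts and 0 to 4 without 1 mouse. Pericytes gave 39 calls, 20 with DESeq2, 76 without the filter, 16 with a hashtag quantile of 0.95 and 20 to 50 without 1 mouse, with 23 without NoFC mouse 4 and 20 without NoFR mouse 3. The causes were not tested. In the *Pdgfrb* fit, no called gene named in the text reversed its direction. There, 5 of the other called genes did at 3000 UMIs or without thinning. In the ligand fits, directions were followed only for the members, *Gria1*, *Igfbp2*, *Agt*, *Kcnma1* and *Ddi1*, and none of those called reversed. Other genes named in the ligand fits were not followed over the alternatives. Members that were not called reversed in some settings. Their log2 fold changes were, for *Pdgfrb*-positive over negative cells, −0.22 for *Pdgfa*, 0.047 with at least 2 UMIs and −0.47 to 0.011 without 1 library, and 0.05 for *Pdgfc*, −0.088 at 3000 UMIs and −0.028 to 0.093 without 1 library. *Pdgfa* stood at −0.02 in the *Pdgfc* split, −0.75 to 0.57 without 1 library, and at −0.08 in the *Pdgfd* split, −0.49 to 0.22 without 1 library. Levels of the members in the classes moved by less than the SD between libraries under the alternatives run.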

Other observations

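Outside the PDGF system, the 39 dividing barcodes stood above other astrocytes in the neuron list and in *Dcx*. The neuron list summed to 222 CPM in them against 18.1 CPM in the others. In pericytes the same list summed to 333 to 373 CPM, of which *Meg3* made 339 of 345 CPM in library 1. *Dcx*, a microtubule protein of migrating young neurons, stood at 32.7 against 1.11 CPM, on 39 UMIs in 30.8% of the 39 barcodes. *Slc1a2* stood at 1457 against 8566 CPM and *Slc1a3* at 862 against 3893 CPM, so the barcodes passed the rule of at least 20 transporter UMIs at a lower level and a higher depth. *Igfbp2* stood at 0.840 against 93.0 CPM.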
